A study of Mus musculus with 26 samples.

Results

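The epithelium of the mouse small intestine was compared at postnatal day 14 (P14) and postnatal day 3 (P3). These ages follow the sample titles, while the design text of the series calls both groups embryonic. The members were 4 of the 26 libraries of a 3′ RNA-seq series on the transcriptional repressor BLIMP1, namely the 2 replicates of P14_IE and the 2 replicates of P3_IE, chosen by their sample names. All mice were C57BL/6 and carried the EGFP-BLIMP1 knock-in on both alleles, which fuses EGFP to the N-terminal end of the protein, so no group has an untagged BLIMP1. At both ages the gut between the caudal part of the duodenum and the ileocecal junction was taken and dissociated. Per the extraction protocol, the cells kept by flow sorting lacked the reporter and carried the epithelial surface protein EPCAM, whereas the sample characteristics name EPCAM alone, so the reporter gate rests on the protocol. Libraries were amplified from 1 ng of RNA. Another intestinal group, the embryonic E16.5_emIE (2 replicates), entered the statistical fit only to help estimate the spread. Its cells were sorted as reporter-positive and EPCAM-positive, so its levels are given below as context and age cannot be told apart from the sort there. The labels do not say whether replicates came from separate litters, animals or pools, and every p-value rests on the variation among these libraries alone, which may be technical.

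The intestinal epithelium is renewed from stem cells in the crypts, which give rise to absorptive enterocytes and to the secretory lineages. Goblet cells make mucus, Paneth cells at the crypt base release antimicrobial peptides, enteroendocrine cells release peptide hormones and tuft cells sense luminal content. In mice, crypts and Paneth cells mature during the first weeks after birth, while enterocytes still take up and process milk. At weaning, which follows P14, BLIMP1-positive neonatal enterocytes are replaced by adult-type cells that grow out of the crypts. If reporter-positive cells were sorted away as the protocol says, the libraries describe the reporter-negative share of the epithelium at each age.

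Values are RPM, reads scaled to a common library total by the authors, and differences are P14 minus P3 on the log2(RPM + 1) scale with their standard error (SE). A difference near 0 RPM at one age depends on the added 1 RPM, and is no estimate of a fold. Calls also depend on the filter: with none, 84 genes rose and 77 fell, and the calls lost there are named below. The test covered the 10124 of 25146 gene lines (40.3%) that reached 5 RPM in 2 or more of the 4 libraries. A gene was called at a Benjamini-Hochberg adjusted p under 0.05 (limma) with a difference of at least 1. Of the genes tested, 207 rose (2.04%) and 244 fell (2.41%), together 451 (4.45%), beside 2162 genes at an unadjusted p under 0.05. Both P14 libraries lay above both P3 libraries for 1918 genes (18.9%) and below them for 3218 (31.8%), and the median difference over all genes tested was -0.08. Of the risers, 64 passed the filter through P14 alone, and 50 of the fallers through P3 alone, so those could hardly have been tested without differing. A single read was worth 0.448 and 0.337 RPM at P3 and 0.305 and 0.166 RPM at P14, at depths of 2230251 to 6040106 reads, as worked out from the steps of the low values. In bulk libraries, fewer cells of a type and less RNA per cell cannot be told apart.

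**Figure D1:**
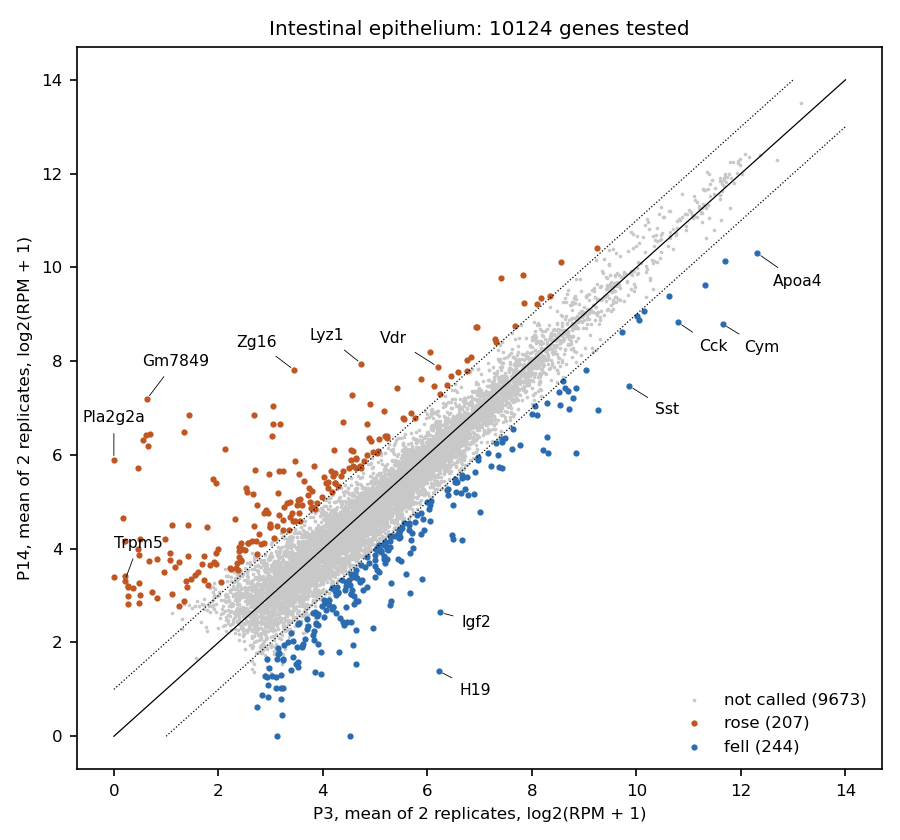
Mean log2(RPM + 1) of the 2 P3 replicates (x axis) against that of the 2 P14 replicates (y axis) for the 10124 genes tested, with dotted lines at a difference of 1. Orange points are the 207 genes that rose, blue points the 244 that fell. The risers farthest from the diagonal sit at the left edge, near 0 at P3, and the fallers farthest from it include H19, Igf2 and Cym.

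Expression of the EPCAM gene, Epcam, was 1042 and 1051 RPM at P3 and 813 and 1087 RPM at P14, and the ages overlapped (difference -0.15 ± 0.15, adjusted p = 0.62). The gene for BLIMP1 itself, Prdm1, gave 46.2 and 71.3 RPM at P3 and 21.4 and 16.9 RPM at P14, so its RNA was read at both ages in cells that the protocol describes as reporter-negative. Both P14 libraries were lower, and Prdm1 fell by a difference of -1.55 ± 0.22 (adjusted p = 3.6e-05).

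Of the 12 largest rises without overlap 10 were alpha-defensins, the others being Pla2g2a and Zg16. Alpha-defensins are the small cationic peptides that Paneth cells store in granules and release to kill bacteria. Their genes form a family of related copies in one cluster, some of them with identical promoters, of which 28 lines were used, all on chromosome 8 between positions 21025545 and 21735471 (GRCm38.p6). The family was drawn together by RefSeq symbol after its values had been seen. The promoters of 4 of them are printed because 3 of these genes are among the 12 largest rises and the fourth, Defa20, was already read at P3. A window runs from 250 bases before to 50 bases after the RefSeq start (GRCm38.p6), and RefSeq held windows for 16 of the 28 lines. In capitals are the letters TATAAA, the core of a TATA box, and ATCAAAG, a core of TCF/LEF sites, the factors through which Wnt signals act; both strands were searched.
Gm14850: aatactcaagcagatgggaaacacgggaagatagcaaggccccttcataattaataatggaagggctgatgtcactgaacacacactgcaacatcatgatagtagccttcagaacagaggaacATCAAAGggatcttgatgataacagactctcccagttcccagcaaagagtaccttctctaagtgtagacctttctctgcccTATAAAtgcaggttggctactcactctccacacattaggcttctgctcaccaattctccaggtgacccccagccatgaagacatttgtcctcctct
Gm10104: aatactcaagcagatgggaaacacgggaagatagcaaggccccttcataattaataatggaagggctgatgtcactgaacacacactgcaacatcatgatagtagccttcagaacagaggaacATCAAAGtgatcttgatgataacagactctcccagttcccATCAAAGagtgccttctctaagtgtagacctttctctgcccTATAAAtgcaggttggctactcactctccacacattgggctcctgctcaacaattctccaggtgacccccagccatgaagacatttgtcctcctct
Defa20: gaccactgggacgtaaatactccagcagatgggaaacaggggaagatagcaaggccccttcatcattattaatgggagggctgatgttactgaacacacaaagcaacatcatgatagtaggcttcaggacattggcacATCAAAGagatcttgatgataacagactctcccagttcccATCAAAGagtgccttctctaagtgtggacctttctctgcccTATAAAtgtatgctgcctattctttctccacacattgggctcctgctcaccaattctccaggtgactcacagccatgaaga
Gm7849: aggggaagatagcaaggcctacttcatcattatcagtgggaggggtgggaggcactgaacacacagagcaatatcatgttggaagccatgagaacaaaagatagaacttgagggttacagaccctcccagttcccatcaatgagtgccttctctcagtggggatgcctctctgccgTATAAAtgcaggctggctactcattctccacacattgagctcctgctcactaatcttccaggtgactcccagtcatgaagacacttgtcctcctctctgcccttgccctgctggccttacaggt
These windows lie at chr8:21565136-21565435, plus strand for Gm14850 (Defa37 in RefSeq), chr8:21064788-21065087, plus strand for Gm10104 (Defa35), chr8:21509008-21509307, plus strand for Defa20 and chr8:21456468-21456767, minus strand for Gm7849 (Defa42). The window of LOC100862126 (Defa36) is identical to that of Gm14850 over all 300 bases, and that of Gm7861 (Defa43) is identical to that of Gm7849. Without gaps, Gm14850 and Gm10104 match at 294 of 300 bases, whereas Gm14850 and Gm7849 match at 179 of 272. ATCAAAG occurred in 13 of the 16 alpha-defensin windows (81.2%) and TATAAA in 15 (93.8%), against 3.73% and 13.6% of all 32851 RefSeq windows. The 16 windows hold only 11 distinct sequences, 9 of them with ATCAAAG, so they are copies rather than separate observations. Outside the family, ATCAAAG was in 4.43% of the 158 windows of genes that rose and in 1.61% of the 249 windows of genes that fell. For comparison, the C-type lectin gene Reg3g (chr6:78468825-78469124, minus strand) holds TATAAA near its start and ATCAAAG on the opposite strand.
Reg3g: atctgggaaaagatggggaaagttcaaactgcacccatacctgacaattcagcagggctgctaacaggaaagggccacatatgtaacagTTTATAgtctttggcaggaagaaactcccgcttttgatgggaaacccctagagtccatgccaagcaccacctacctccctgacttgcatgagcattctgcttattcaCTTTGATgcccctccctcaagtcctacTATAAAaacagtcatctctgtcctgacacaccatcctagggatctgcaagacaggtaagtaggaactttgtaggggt
A match of letters is a description of the window and shows no binding.

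Summed over the 28 lines, alpha-defensins gave 2884.5 and 2251.7 RPM at P3 and 6004.0 and 7760.7 RPM at P14, after 80 and 78.4 RPM at E16.5. The sum was at most 3.48 RPM in any of the 20 libraries of other tissues. Of 27 lines tested 25 rose and none fell, against 2.04% of all genes tested, and they make up 12.1% of all risers. Of the 27, 10 passed the filter through P14 alone, so the count is partly set by the filter. Between 23 and 25 rose when any 1 of the 4 libraries was left out.

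The copies did not move by equal amounts. Gm7849 was read at 0.889 and 0.274 RPM at P3 and at 182 and 116 RPM at P14 (difference 6.56 ± 0.42, adjusted p = 1.1e-10). Gm14850 went from 0.612 and 0.464 RPM to 72.8 and 98.2 RPM, and Gm10104 from 2.11 and 1.09 RPM to 74.4 and 106 RPM. There were 9 lines below 3 RPM in both P3 libraries and above 20 RPM in both P14 libraries, so these were at or near 0 at the earlier age. Defa20 started higher, at 9.4 and 5.49 RPM, and reached 171 and 98.7 RPM (3.99 ± 0.37, adjusted p = 2.9e-08). Defa17, already at 437 and 324 RPM at P3, stood at 981 and 1244 RPM at P14 (1.55 ± 0.17, adjusted p = 4.4e-07). Defa24 was not called, with 1486 and 1230.1 RPM at P3 and 1511 and 2204 RPM at P14 (0.43 ± 0.16, adjusted p = 0.1). Close copies can share reads, so the level and the difference of any single copy are uncertain, and the sum does not depend on how reads were assigned within the family. Among the largest rises were also Defa5, Gm15315, AY761184 and Gm15293, each below 3 RPM in both P3 libraries and between 20.4 and 151 RPM at P14 (AY761184 the highest, Gm15293 the lowest).

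Most tested genes of the Paneth and antimicrobial list rose. Of its 25 tested members (12 of them alpha-defensins, of which 11 rose) 20 rose and 1 fell (2.04% and 2.41% of all genes). The median difference was 2.01 beside -0.08 over all genes. Of the 25, 3 (Reg3a, Pla2g2a and Defa5) passed the filter through P14 alone, so those could hardly have been tested without differing. The alpha-defensin copies can share reads, so they are not separate observations. The bacteriolytic enzyme lysozyme P, Lyz1, was at 28.7 and 22.9 RPM at P3 and at 199.9 and 302 RPM at P14, after 1.92 and 2.47 RPM at E16.5. Both P14 libraries were far above both P3 libraries, and Lyz1 rose by 3.21 ± 0.26 (adjusted p = 3.7e-09). The C-type lectin Reg3g, which binds peptidoglycan of Gram-positive bacteria, rose from 18.8 and 26.8 RPM to 157 and 152 RPM (2.73 ± 0.33, adjusted p = 3.4e-06). Its relative Reg3a rose from 2.69 and 3.03 RPM to 30.2 and 56.1 RPM (3.45 ± 0.43, adjusted p = 3.9e-06). Itln1, a lectin of Paneth and goblet cells that binds microbial sugars, rose from 38.1 and 21.9 RPM to 106 and 172 RPM (2.19 ± 0.33, adjusted p = 6.1e-05).

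Other members were less even. Pla2g2a, a secreted phospholipase known to be disrupted by a frameshift in C57BL/6 and annotated by RefSeq as a transcribed pseudogene, was listed at 0 in both P3 libraries. At P14 it was read at 14.3 RPM in replicate 1 and 232 RPM in replicate 2, the widest P14 gap among genes with a mean of at least 50 RPM. It rose (adjusted p = 3.8e-06), having passed the filter through P14 alone. Its difference of 5.90 became 7.86 without P14 replicate 1 and 3.94 without P14 replicate 2. Mmp7, the protease that activates alpha-defensins, was at 39.9 and 31.3 RPM at P3 and 85.1 and 81.8 RPM at P14, and rose by 1.22 ± 0.35 (adjusted p = 0.026). That call was lost without any 1 of the 4 libraries (adjusted p from 0.13 to 0.29). Ang4, an antimicrobial ribonuclease of Paneth and goblet cells, went the other way, from 57.5 and 62.5 RPM to 15.5 and 25.7 RPM (-1.54 ± 0.35, adjusted p = 0.0042), and its call was lost without P3 replicate 1 (0.078), P3 replicate 2 (0.11) or P14 replicate 1 (0.14). Between 17 and 18 members rose when 1 of the 4 libraries was left out, and 12 rose with no filter on low values. There the calls of Reg3g (0.087), Itln1 (0.052), Pla2g2a (0.079), Mmp7 (0.26) and Ang4 (0.17) were lost, and that of Mmp7 was also lost with a pseudocount of 0.5 RPM (0.087). Some goblet genes, given next, rose as well, and the tuft genes tested had all passed the filter through P14 alone. The part of goblet and tuft cells in this list was not tested.

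**Figure D2:**
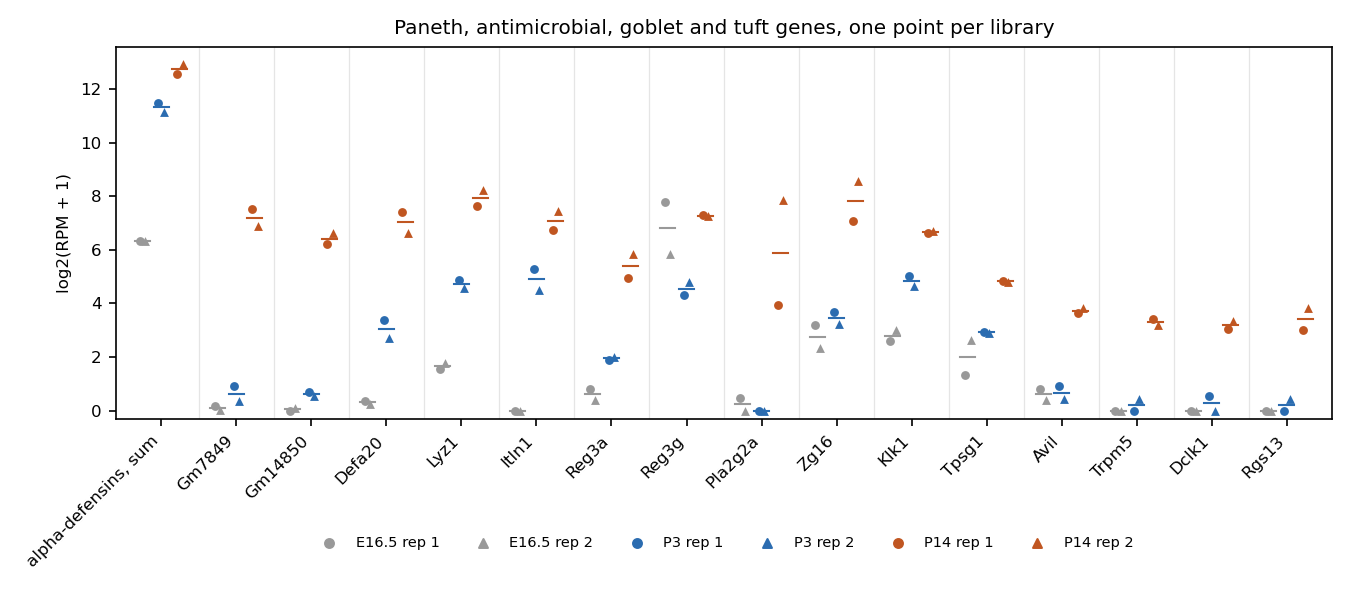
log2(RPM + 1) in each of the 6 intestinal libraries (grey E16.5, blue P3, orange P14; circles replicate 1, triangles replicate 2; bars are means of 2) for the summed alpha-defensins and 15 Paneth, antimicrobial, goblet and tuft genes. In each column both P14 points lie above both P3 points, and the P14 points of Pla2g2a, at 14.3 and 232 RPM, are the farthest apart. For Gm7849, Gm14850, Reg3a, Pla2g2a, Avil, Trpm5, Dclk1 and Rgs13 that order is required by passing the filter through P14 alone.

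Among goblet cell genes fewer were called. Of 17 tested, 5 rose and none fell (2.04% of all genes rose), with a median difference of 0.78. Of the 17, 1 passed the filter through P14 alone. Zg16, a lectin of the mucus layer that keeps bacteria away from the epithelium, was at 11.7 and 8.41 RPM at P3 and at 133 and 376 RPM in P14 replicates 1 and 2. Both P14 libraries were above both P3 libraries but far from each other. Zg16 rose by 4.36 ± 0.35 (adjusted p = 3.4e-09), by 3.61 without P14 replicate 2 and by 5.11 without P14 replicate 1. Klk1, a kallikrein protease found in goblet cells, rose from 31.8 and 24.1 RPM to 96.7 and 104 RPM (1.82 ± 0.26, adjusted p = 2.5e-05). The ER-stress transcription factor Creb3l1 rose from 17.5 and 14.8 RPM to 42.1 and 41.9 RPM (1.33 ± 0.28, adjusted p = 0.0025), a call lost without P3 replicate 2 (0.053). The main mucin gene Muc2, at 155 and 154 RPM at P3 and 164 and 244 RPM at P14, was not called (0.38 ± 0.20, adjusted p = 0.28). Trefoil factor Tff3, at 1053 and 912 RPM and then 1578 and 1782 RPM, stayed under the fold required (0.77 ± 0.15, adjusted p = 0.0013). The number of goblet genes that rose was 3 without P3 replicate 2 or with no filter on low values.

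Tuft cell genes were at or near 0 at P3. Of 16 on the list, 7 could be tested, all of them through P14 alone, and all 7 rose, so the count was fixed by the filter and supports nothing by itself. Trpm5, the cation channel of taste transduction, was at 0 and 0.337 RPM at P3, which is at most 1 read, and at 9.76 and 8.28 RPM at P14 (3.11 ± 0.57, adjusted p = 0.00061). The kinase Dclk1, a widely used tuft marker, was at 0.448 and 0 RPM and then at 7.32 and 9.11 RPM (2.93 ± 0.58, adjusted p = 0.0012). Rgs13, a regulator of G protein signals, was at 0 and 0.337 RPM and then at 7.02 and 13.1 RPM (3.20 ± 0.58, adjusted p = 0.00052). The actin-binding protein Avil was at 0.897 and 0.337 RPM and then at 11.6 and 13.1 RPM (3.06 ± 0.52, adjusted p = 0.00023). Both P14 libraries were above both P3 libraries in each of them, as passing the filter at P14 alone requires, so these values are a description. The other members did not pass the filter, and among them Pou2f3, the factor that specifies tuft cells, was at 0, 0.673, 0.915 and 3.48 RPM in the order P3 then P14. Summed over all 16, tuft genes gave 12.1 and 5.89 RPM at P3 and 72 and 92.1 RPM at P14. Alox5ap, on this list, is also known from blood cells, and was at 0.897 and 0.673 RPM and then 9.15 and 17.4 RPM. The immune marker list, with a sum of 30 and 32.8 RPM at P3 and 43.4 and 34.3 RPM at P14, is described further on, and its part in these rises was not tested.

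Several enteroendocrine genes, hormones among them, fell. Of 24 tested, none rose and 9 fell (2.41% of all genes fell), with a median difference of -0.68. Summed over the 26 lines of the list, they gave 9585 and 6437 RPM at P3 and 2342 and 4238 RPM at P14, after 199 and 142 RPM at E16.5. The replicates were uneven: 23 of the 24 genes were lower in P14 replicate 1 than in P14 replicate 2, by a median of 0.73, and 18 of 24 were higher in P3 replicate 1 than in P3 replicate 2. With no filter on low values 0 enteroendocrine genes fell, the hormones below included (adjusted p from 0.05 for Pyy to 0.45 for Gip), and with the fit of all 26 libraries 6 fell, without Ghrl (0.056), Sct (0.11) and Gip (0.092).

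Among the hormones, somatostatin (Sst), which inhibits the release of other gut hormones, was at 1166 and 744 RPM at P3 and at 118 and 261 RPM at P14. Sst fell by a difference of -2.40 ± 0.31 (adjusted p = 7e-06). Neurotensin (Nts), a hormone released on fat ingestion, was at 484 and 437 RPM and then at 37.8 and 112 RPM (-2.80 ± 0.39, adjusted p = 2e-05). Peptide YY (Pyy), which slows gut transit, was at 408 and 215 RPM and then at 62.2 and 73.3 RPM (-2.12 ± 0.27, adjusted p = 4.7e-06). In these genes every P14 library was below every P3 library, although P14 replicate 2 was the higher of its pair. Cholecystokinin (Cck), which triggers gallbladder contraction, was at 2462 and 1289 RPM and then at 297 and 688 RPM (-1.97 ± 0.29, adjusted p = 4.3e-05). Ghrelin (Ghrl), the orexigenic peptide, was at 633 and 279 RPM and then at 96.7 and 162 RPM (-1.74 ± 0.26, adjusted p = 4.3e-05). Single libraries moved the differences of Nts, Cck and Ghrl by over 1.5 times in fold. Without P14 replicate 1 they were -2.03 for Nts and -1.37 for Cck, without P14 replicate 2 they were -3.57 and -2.58, and Ghrl was at -1.15 without P3 replicate 1 and -2.33 without P3 replicate 2.

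Other falls on the list were less steady, and not every hormone fell. The incretin gene Gip was at 1883 and 1309.5 RPM at P3 and 494 and 919 RPM at P14 and fell (-1.22 ± 0.36, adjusted p = 0.031), but the call was lost without P3 replicate 1 (0.39), P3 replicate 2 (0.15) or P14 replicate 1 (0.47), and with median-of-ratios or quantile scaling (0.11 and 0.064) or a pseudocount of 0.5 RPM (0.052). Secretin (Sct), which stimulates bicarbonate secretion, was at 649 and 424 RPM and then 167 and 297 RPM (-1.23 ± 0.22, adjusted p = 0.00053), and its call was lost without P3 replicate 1 (0.097) or P14 replicate 1 (0.06). Chgb, a granule protein shared by enteroendocrine cells, was at 1167 and 1111 RPM and then 419.9 and 689 RPM (-1.08 ± 0.18, adjusted p = 0.00016), and at -0.72 without P14 replicate 1 or -0.99 with median-of-ratios scaling it no longer reached the fold required. Gcg, the precursor of the hormone GLP-1, ran opposite, with 244 and 159 RPM at P3 and 327 and 452 RPM at P14. Its difference of 0.96 ± 0.21 (adjusted p = 0.0029) lay just under the fold required and passed it without P3 replicate 1 (1.27) or P14 replicate 1 (1.20) and with median-of-ratios or quantile scaling (1.05 and 1.00). Neurog3, the factor that starts the enteroendocrine lineage, was at 22.4 and 15.5 RPM and then 23.8 and 26.8 RPM and was not called (0.42 ± 0.33, adjusted p = 0.52). The number of enteroendocrine genes that fell was 5 without P14 replicate 1, and 6, 7 and 8 without P3 replicate 1, P3 replicate 2 and P14 replicate 2.

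**Figure D3:**
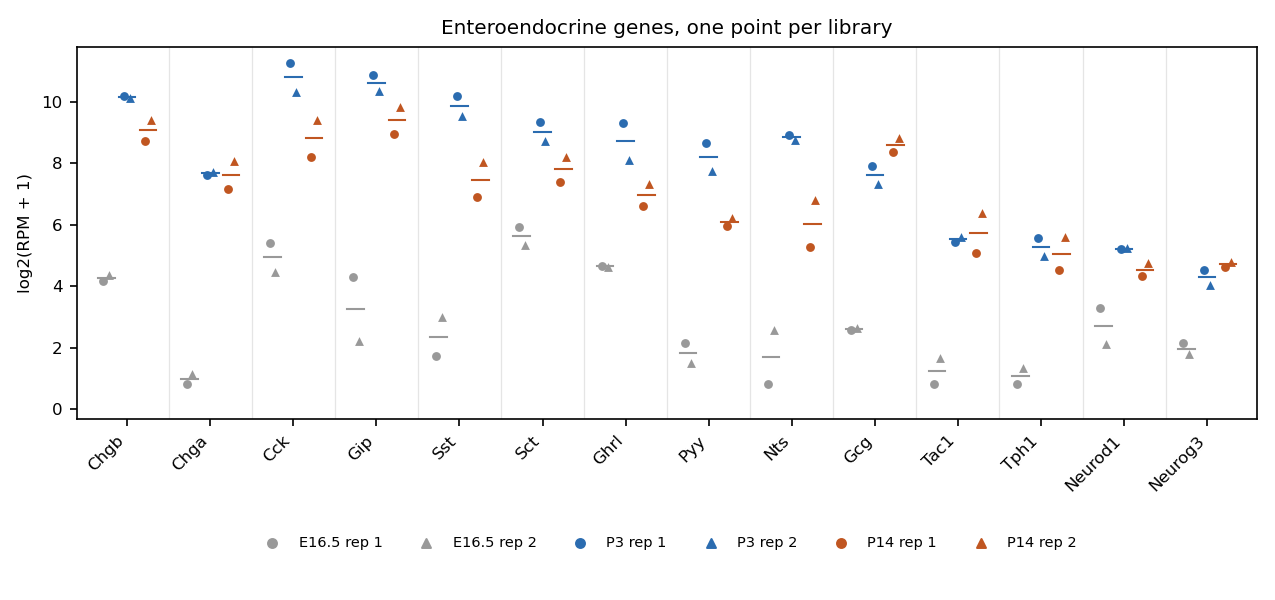
log2(RPM + 1) of 14 enteroendocrine genes in each of the 6 intestinal libraries (colours and symbols by age and replicate, bars are means of 2). For Sst, Cck, Pyy, Nts and Ghrl both P14 points lie below both P3 points and the P14 triangle lies above the P14 circle, whereas for Gcg both P14 points lie above both P3 points.

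Several fetal growth genes fell between P3 and P14. Imprinted genes are expressed from one parental copy, and many of them drive or restrain growth before and shortly after birth. Of 13 tested members of this list none rose and 6 fell (2.41% of all genes fell), and 3 of the 13, H19 among them, passed the filter through P3 alone. The list had a median difference of -1.02 and both P14 libraries below both P3 libraries for 12 of 13 (31.8% of all genes). H19, a maternally expressed RNA, was at 6903 and 6971 RPM at E16.5, 84.7 and 63.9 RPM at P3 and 2.75 and 0.828 RPM at P14. H19 showed the largest fall of any gene tested (-4.83 ± 0.23, adjusted p = 9.8e-14). Its paternally expressed neighbour Igf2, an insulin-like growth factor, was at 3649.6 and 4262 RPM, then 74.9 and 75.1 RPM and then 4.58 and 5.96 RPM (-3.61 ± 0.17, adjusted p = 9.8e-14). Both genes were thus low at P3 against E16.5, where the sort differed, and lower again at P14 under the same sort as P3. The cell cycle inhibitor Cdkn1c was at 32.8 and 31 RPM at P3 and 9.15 and 12.4 RPM at P14 (-1.50 ± 0.19, adjusted p = 5.4e-06). Grb10, which restrains insulin signalling, was at 40.4 and 47.1 RPM and then 18.9 and 21.2 RPM (-1.09 ± 0.21, adjusted p = 0.0012), a call lost without P3 replicate 2 (0.052) and, at a difference of -0.96, with a pseudocount of 5 RPM. The RNA-binding protein Igf2bp3, at 243 and 271 RPM and then 156 and 116 RPM, lay just under the fold required (-0.93 ± 0.16, adjusted p = 0.00024) and reached it without P3 replicate 1 (adjusted p = 0.011) or P14 replicate 1 (-1.13). Between 4 and 7 members fell when 1 of the 4 libraries was left out, and the lowest count was without P3 replicate 2.

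Some genes of the suckling-period enterocyte fell. Of 16 tested, none rose and 7 fell (2.41% of all genes fell), or 4 with no filter on low values, with a median difference of -0.68. Of the 16, 2 passed the filter through P3 alone, so those could hardly have been tested without differing. Cym, the milk-clotting protease chymosin, was at 3042 and 3430.0 RPM at P3 and at 589 and 330.1 RPM at P14, against 20 and 15.1 RPM at E16.5. Cym fell by a difference of -2.87 ± 0.19 (adjusted p = 1.4e-10). Its promoter is printed as that of the suckling-period gene with the largest fall (chr3:107221683-107221982, minus strand, TATAAA in capitals).
Cym: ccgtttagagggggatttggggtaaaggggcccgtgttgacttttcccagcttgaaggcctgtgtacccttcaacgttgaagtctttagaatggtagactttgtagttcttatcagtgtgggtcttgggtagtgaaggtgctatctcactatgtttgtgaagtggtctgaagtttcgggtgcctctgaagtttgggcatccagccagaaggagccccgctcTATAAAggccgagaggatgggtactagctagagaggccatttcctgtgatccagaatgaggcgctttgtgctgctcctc
Chymosin is best known from the stomach and also stands on the stomach and pancreas marker list, whose other 5 tested members included one more call, the pancreatic protease Ctrb1 (lost without P3 replicate 2, adjusted p = 0.12 by limma, and with no filter, 0.1). Without Cym, that list summed to under 200 RPM in each library: 172, 165, 122 and 138 in the order P3 then P14, and 14 of its 32 lines were at 0 in all 4. Folr1, a folate receptor, fell from 84.7 and 102 RPM to 37.5 and 34.9 RPM (-1.33 ± 0.18, adjusted p = 8.5e-06). Fcgrt, the neonatal Fc receptor that carries milk antibodies across the epithelium, fell from 282 and 229 RPM to 138 and 96.5 RPM (-1.13 ± 0.18, adjusted p = 0.00013). Without P3 replicate 1 or P14 replicate 2 its difference was -0.98 or -0.88, short of the fold required, and with no filter its adjusted p was 0.087.

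The milk-sugar enzyme lactase did not follow this list. Lct was at 105 and 92.2 RPM at P3 and at 153 and 199 RPM at P14, so both P14 libraries were the higher (0.82 ± 0.16, adjusted p = 0.00095), though under the fold required except without P14 replicate 1 (1.00). The lysosomal and endocytic genes that neonatal ileal enterocytes use to digest milk proteins gave 1 fall in 23 tested, that of Fcgrt. Over all genes 2.41% fell, and the list had a median difference of -0.33. Of 14 adult-type enterocyte genes tested, 1 rose and 1 fell (2.04% and 2.41% of all genes), with a median of 0.15. Counts this small show no trend of the list. The riser was Arg2, the mitochondrial arginase, with 0.448 and 0.337 RPM at P3, about 1 read in each library, and 12.2 and 15.2 RPM at P14 (3.40 ± 0.51, adjusted p = 6.2e-05). It passed the filter through P14 alone, so it could be tested only by differing. Sucrase-isomaltase (Sis), the disaccharidase that marks weaning, was at 24.7 and 36.3 RPM at P3 and 31.7 and 61.8 RPM at P14. The ages overlapped and Sis was not called (0.55 ± 0.36, adjusted p = 0.42).

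A pair of brush border peptidases moved in opposite directions. Enpep, a glutamyl aminopeptidase, was at 14.8 and 26.9 RPM at P3 and at 79.3 and 133 RPM at P14, and rose by 2.31 ± 0.23 (adjusted p = 1.6e-07). Its level at E16.5 had been 509 and 664 RPM. Anpep, aminopeptidase N, was at 109 and 91.2 RPM at P3 and 44.9 and 48.5 RPM at P14, and fell by a difference of -1.08 ± 0.20 (adjusted p = 0.00063). Without P3 replicate 1 or with no filter the Anpep call was lost (0.053 and 0.074), and with median-of-ratios scaling its difference of -0.99 no longer reached the fold required. Of 19 brush border genes tested, 2 rose and 2 fell (2.04% and 2.41% of all genes), and the median was 0.13. The others were Naaladl1, which rose, and Ace, which fell, and both calls were lost without P3 replicate 1 (0.097 and 0.43) or P14 replicate 1 (0.14 and 0.31), and with no filter (0.14 and 0.22). That of Ace was also lost with median-of-ratios or quantile scaling (0.079 and 0.067), with the 4 libraries fitted alone (0.08), with all 26 fitted (0.12) and, at a difference of -0.77, with a pseudocount of 5 RPM.

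Many genes of lipid handling fell. Of 26 genes of lipid absorption and lipoproteins, 2 rose and 11 fell (2.04% and 2.41% of all genes), and the median difference was -0.77. Of the 26, 2 passed the filter through P3 alone, so those could hardly have been tested without differing. The apolipoprotein Apoa4, made in quantity by enterocytes during fat absorption, was at 5338 and 4865 RPM at P3 and 1167 and 1360.1 RPM at P14 (-2.02 ± 0.13, adjusted p = 1.4e-10). Apoc2, the cofactor of lipoprotein lipase, was at 724 and 528 RPM and then 99.8 and 154 RPM (-2.31 ± 0.18, adjusted p = 1.5e-09). The intestinal fatty acid binding protein Fabp2 was at 3513 and 3140.2 RPM and then 1048 and 1202 RPM (-1.56 ± 0.13, adjusted p = 7.9e-09). In each of these genes both P14 libraries were far below both P3 libraries, and the replicates of Apoc2 were the least even. Apob, the structural protein of chylomicrons, fell from 282 and 264 RPM to 98.6 and 131 RPM (-1.26 ± 0.17, adjusted p = 1.2e-05), and Dgat2, an enzyme of triglyceride synthesis, from 234 and 202 RPM to 72 and 74.4 RPM (-1.56 ± 0.15, adjusted p = 5.9e-08). The risers were the paired sterol exporters Abcg5 and Abcg8. Abcg5 rose from 9.42 and 6.73 RPM to 40.3 and 60.4 RPM (2.49 ± 0.30, adjusted p = 2.3e-06). Abcg8 rose from 8.97 and 7.07 RPM to 21.7 and 30 RPM (1.56 ± 0.34, adjusted p = 0.0036), a call lost without P3 replicate 2 (0.076) or P14 replicate 2 (0.081). The number of lipid genes that fell was 7 without P3 replicate 1 or with no filter on low values, where Abcg8 was lost too (0.12), and 8 with the fit of all 26 libraries, where Apob was lost (0.074).

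Genes of fatty acid oxidation and ketogenesis had falls and no rises. Of 20 tested none rose and 4 fell (2.41% of all genes fell), with a median of -0.70 and both P14 libraries below both P3 libraries for 17 (31.8% of all genes). The acyl-CoA dehydrogenase Acadl fell from 397 and 346 RPM to 127 and 141 RPM (-1.46 ± 0.15, adjusted p = 1.4e-07). Hadhb, a subunit of the mitochondrial trifunctional protein, fell from 838 and 859 RPM to 418 and 365 RPM (-1.12 ± 0.14, adjusted p = 4.8e-06). Slc25a20, the carnitine-acylcarnitine carrier, fell from 156 and 161 RPM to 78.4 and 71.4 RPM (-1.08 ± 0.16, adjusted p = 6e-05), but with median-of-ratios scaling its difference of -0.99 no longer reached the fold required. Cpt1a, the gate of mitochondrial fatty acid import, went from 509 and 476 RPM to 301 and 263 RPM, under the fold required (-0.81 ± 0.14, adjusted p = 0.00041). Cholesterol synthesis showed 1 call in 21 (4.45% of all genes were called), and its median difference was -0.06. Of 9 bile acid genes only Fabp6, the bile acid binding protein of the ileum, was called. Fabp6 was at 0 and 1.01 RPM at P3, and at 45.2 and 6.29 RPM in P14 replicates 1 and 2 (3.69 ± 0.58, adjusted p = 9.6e-05). Its P14 replicates differed widely, and the difference was 2.36 without P14 replicate 1 and 5.03 without P14 replicate 2. It passed the filter through P14 alone, and its call was lost with no filter (0.12).

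**Figure D4:**
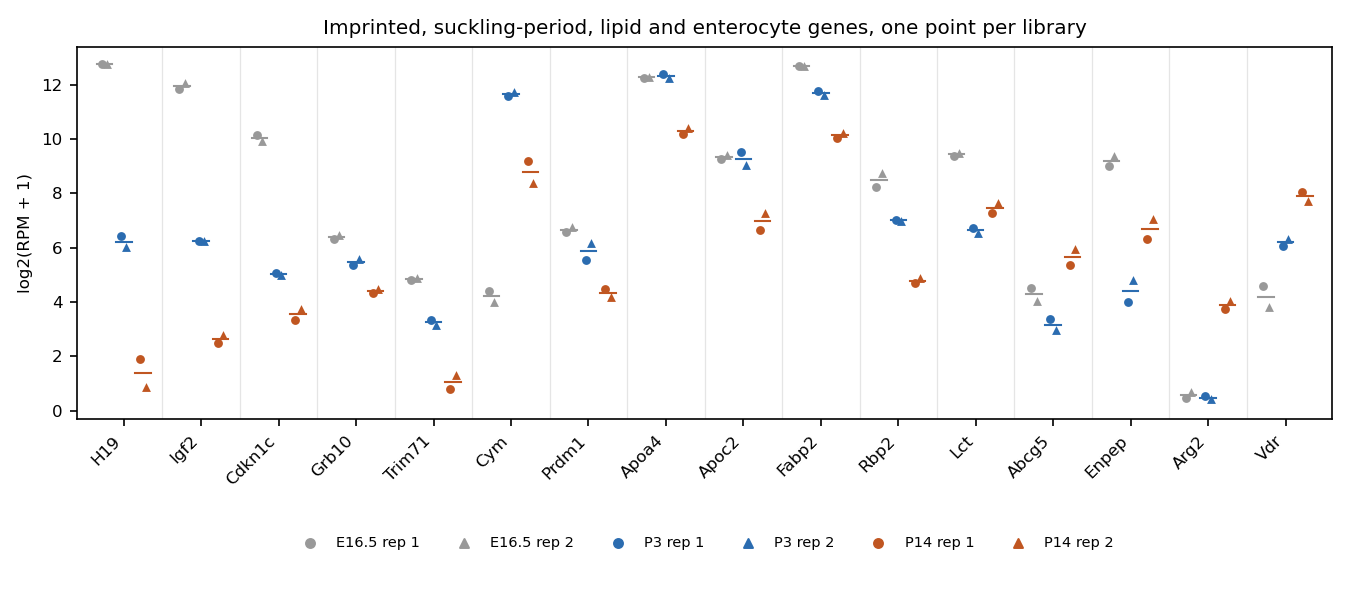
log2(RPM + 1) of 16 imprinted, suckling-period, lipid and enterocyte genes in each of the 6 intestinal libraries (colours and symbols by age and replicate, bars are means of 2). From H19 to Rbp2 both P14 points lie below both P3 points, and from Lct to Vdr both lie above.

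Other transport and metabolic lists held calls of a few genes each. Sugar transport and gluconeogenesis had 3 falls in 16 tested (2.41% of all genes fell), and 2 of the 16 passed the filter through P3 alone. Among the falls was that of Txnip, a glucose-responsive arrestin, from 364 and 427 RPM to 175 and 169.7 RPM (-1.19 ± 0.16, adjusted p = 1.3e-05). The gluconeogenic enzyme Pck1 went from 163 and 125 RPM to 53.4 and 78.6 RPM (-1.13 ± 0.20, adjusted p = 0.00042), a call lost without P3 replicate 1 (0.057) and, at a difference of -0.85, without P14 replicate 1, as well as with no filter (0.087). Of 15 arginine and urea cycle genes 1 rose, the same Arg2 that passed the filter through P14 alone, and 1 fell. Of 13 peptide and amino acid transporters 1 rose and 2 fell, and 1 of the 13 passed the filter through P14 alone. Iron handling had 1 fall in 12, the duodenal ferric reductase Cybrd1, from 8.22 and 8.08 RPM to 0.763 and 0.688 RPM (-2.41 ± 0.42, adjusted p = 0.00036), which passed the filter through P3 alone and was lost with no filter (0.056). Detoxification genes had 3 rises and 2 falls in 25, and 3 of the 25 passed the filter through P14 alone. The carboxylesterase Ces2a rose from 23.7 and 20.8 RPM to 56.5 and 61.2 RPM (1.37 ± 0.25, adjusted p = 0.0005). Its relative Ces1f rose from 0.897 and 0 RPM to 14 and 16.1 RPM (3.54 ± 0.55, adjusted p = 9.6e-05), having passed the filter through P14 alone. Over all genes 2.04% rose and 2.41% fell, and the counts of these lists rest on a few genes each.

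The calls among transcription factors of the gut were mostly falls. Of 37 tested, 1 rose and 4 fell (2.04% and 2.41% of all genes), with a median of -0.17. Of the 37, 1 passed the filter through P14 alone and 1 through P3 alone. The vitamin D receptor Vdr, which controls calcium uptake, was at 22.7 and 13 RPM at E16.5, 65.9 and 79.4 RPM at P3 and 266 and 207 RPM at P14, and rose by 1.68 ± 0.22 (adjusted p = 8.1e-06). Onecut2, a regulator of duodenal enterocyte genes, fell from 94.8 and 125 RPM to 37.8 and 31.6 RPM (-1.62 ± 0.19, adjusted p = 2.7e-06). The intestinal master regulator Cdx2 was at 26.5 and 25.9 RPM and then 34.5 and 34.8 RPM and was not called (0.39 ± 0.22, adjusted p = 0.33). Prdm1, given above, fell too, as did Creb3l3, a regulator of lipid genes, at 416 and 358 RPM and then 221 and 162 RPM (-1.03 ± 0.16, adjusted p = 6.2e-05). It fell short of the fold required without P3 replicate 1 (-0.92), without P14 replicate 2 (-0.80) and with median-of-ratios or quantile scaling (-0.94 and -0.98), and its call was lost with no filter, where 2 of the factors fell.

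Among 13 glucocorticoid-responsive genes, 4 rose and none fell (2.04% and 2.41% of all genes), with a median of 0.19. Fkbp5, a chaperone of steroid receptors, rose from 8.07 and 9.09 RPM to 25 and 33.1 RPM (1.64 ± 0.26, adjusted p = 0.00013). The metal-binding Mt2 was at 261 and 108 RPM in the P3 replicates and 568 and 1346 RPM in the P14 replicates (2.37 ± 0.30, adjusted p = 4.9e-06). The ages did not overlap, but the replicates of each age were more than a factor of 2 apart, and leaving out single libraries gave differences from 1.74 (without P3 replicate 2) and 1.75 (without P14 replicate 2) to 3.00 (without P14 replicate 1) and 3.01 (without P3 replicate 1). The number of risers on the list was 2 without P3 replicate 2 or P14 replicate 2, and 1 with no filter, where Mt2 was lost (0.11). By limma, none of 13 circadian clock genes and none of 36 cell cycle genes was called (4.45% of all genes were). At an unadjusted p under 0.05 were 3 and 5 of them, beside 2162 of all 10124 genes. Counts this small do not show that these genes were unchanged. The cell cycle median was -0.21. Both P14 libraries lay below both P3 libraries for 16 of the 36 (31.8% of all genes) and above them for 3 (18.9%). Of 16 stem cell and crypt genes 1 rose and 1 fell (2.04% and 2.41% of all genes). The stem cell marker Olfm4 was at 1696 and 1962 RPM at P3 and 2521 and 1686 RPM at P14, and Lgr5 at 56.9 and 95.6 RPM and then 114 and 70.4 RPM. Both overlapped between ages and neither was called (Olfm4 0.18 ± 0.16, adjusted p = 0.6; Lgr5 0.28 ± 0.28, adjusted p = 0.64).

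Interferon-response and antigen-presentation genes held calls in 1 direction. Of 22 tested, 1 of them through P3 alone, none rose and 5 fell (2.41% of all genes fell). The median was -0.56, and both P14 libraries lay below both P3 libraries for 18 of the 22 (31.8% of all genes). With no filter on low values 0 of them fell, with adjusted p = 0.081 for Oasl2 and 0.12 for Irf7. Oasl2, an antiviral protein, fell from 17.5 and 20.9 RPM to 4.27 and 5.3 RPM (-1.80 ± 0.39, adjusted p = 0.003), a call lost without P3 replicate 2 (0.083). Irf7, the factor that amplifies type I interferon, fell from 39.9 and 24.2 RPM to 12.5 and 10.4 RPM (-1.37 ± 0.33, adjusted p = 0.0071), a call lost without P3 replicate 1 (0.22) or P14 replicate 2 (0.069). The abundant light chain B2m was at 1349 and 1219 RPM and then 1039.9 and 1149 RPM and was not called (-0.23 ± 0.13, adjusted p = 0.34). The number that fell was 2 without P3 replicate 1, 1 without P3 replicate 2, 3 without P14 replicate 1 and 1 without P14 replicate 2. Immediate early genes, which can respond to tissue dissociation, had 2 rises in 23 (2.04% of all genes rose). They were Atf3, from 99.1 and 90.5 RPM to 283 and 168 RPM (1.20 ± 0.22, adjusted p = 0.00063), a call lost without P14 replicate 1 (0.072) or with all 26 libraries fitted (0.062), and Cyr61, lost without P3 replicate 1 (0.067). Both were lost with no filter (0.11 and 0.1). With median-of-ratios scaling 5 immediate early genes rose, and with quantile normalization 6.

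**Figure D5:**
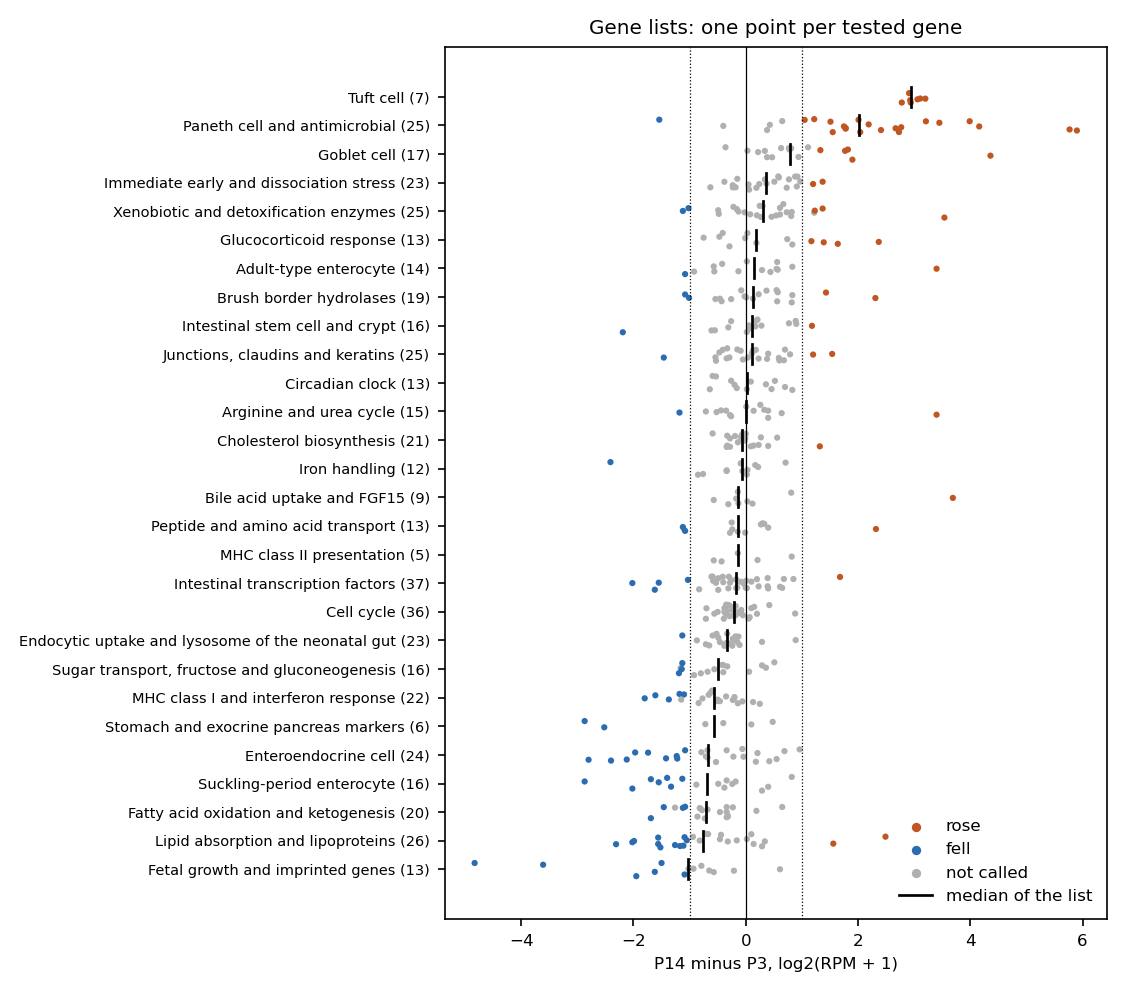
Difference P14 minus P3 on the log2(RPM + 1) scale for each tested gene of the 28 lists with at least 5 tested genes, ordered by their medians (black bars). The Paneth, tuft and goblet medians lie at 2.01, 2.94 and 0.78, and the enteroendocrine, lipid and imprinted medians at -0.68, -0.77 and -1.02. All 7 tuft genes passed the filter through P14 alone, so the sign of their median was fixed by the filter.

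Markers of other cells were low in all 4 libraries. Of 31 T cell, NK cell, B cell and myeloid lines, 27 were below 5 RPM in every library, 5 were at 0 in all 4, and Cd3e was among those 5. Of 3 tested 1 rose, lysozyme M (Lyz2), from 0.448 and 0 RPM to 7.02 and 5.22 RPM (2.55 ± 0.59, adjusted p = 0.0053), a call lost without P3 replicate 2 (0.081) or P14 replicate 1 (0.066), and it passed the filter through P14 alone. Lyz2 is a near copy of Lyz1, and reads they share cannot be told apart. Erythroid lines summed to 6.73 and 14.8 RPM at P3 and to 68.8 and 2.57 RPM at P14, with P14 replicate 1 standing apart. Mesenchymal, endothelial, muscle and neuronal lines summed to 78.8 and 92.9 RPM at P3 and 81.5 and 74.7 RPM at P14. Xist, the RNA of the inactive X chromosome in females, was at 12.6 and 43.9 RPM at P3 and 0.305 and 16.9 RPM at P14. It was called as fallen (adjusted p = 0.026) although the ages overlapped, and the call was lost without P3 replicate 1 (0.056), P3 replicate 2 (0.49) or P14 replicate 1 (0.73), with either other scaling (0.072), with no filter (0.42) and with all 26 libraries fitted (0.21). The labels used here give no sex for these libraries, and the part of sex in any difference was not tested.

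The 12 largest falls without overlap held 8 genes beside H19, Igf2, Cym and Nts. Capg, an actin-capping protein, was at 25.1 and 36 RPM at P3 and 5.19 and 2.98 RPM at P14 (-2.65 ± 0.34, adjusted p = 5.4e-06). Ptprt, a receptor tyrosine phosphatase, was at 22.4 and 23.2 RPM and then 2.75 and 2.98 RPM (-2.62 ± 0.33, adjusted p = 4.3e-06). Both P14 libraries of these genes were far below both P3 libraries. Cartpt, a neuropeptide precursor, was at 25.6 and 22.2 RPM and then 1.22 and 2.81 RPM (-3.09 ± 0.48, adjusted p = 7.7e-05). S100b, a calcium-binding protein known from glia, was at 14.8 and 14.5 RPM and then 1.53 and 1.49 RPM (-2.64 ± 0.44, adjusted p = 0.00017). It stands on the marker list of enteric neurons and other non-epithelial cells, whose sums are given above, and their part in its fall was not tested. Ccdc102a and 2700086A05Rik were below 11 RPM throughout, and the call of Ccdc102a was lost without P3 replicate 1 (adjusted p = 0.076, limma) or with no filter (0.083). Ptprt, Cartpt, S100b, Ccdc102a, 2700086A05Rik and Gm20604 all passed the filter through P3 alone. Gm20604 was called as fallen, from 14 and 34 RPM to under 0.01 RPM (difference -4.51, or -5.12 and -3.90 without P3 replicate 1 and 2), but it overlaps Moap1, and the sum of both was 19.9 and 34 RPM at P3 and 23.8 and 20 RPM at P14. For this pair the assignment of reads, and not only expression, can differ between libraries.

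Replicates were close for most genes and far apart for a few. Over all genes tested, the median absolute gap between replicates was 0.22 at P3 and 0.25 at P14 on the log2(RPM + 1) scale. Among 3418 genes with a mean of at least 50 RPM, 4 at P3 and 17 at P14 differed by a factor of 2 or more between replicates. The sialyltransferase St3gal4 was at 50.7 and 59.6 RPM at P3, but at 10.4 RPM in P14 replicate 1 and 167 RPM in P14 replicate 2, one below and one above the earlier age. It was not called (-0.36 ± 0.58, adjusted p = 0.8), yet passed as a rise of 1.59 without P14 replicate 1 and as a fall of -2.30 without P14 replicate 2. The line 1810030J14Rik was at 28 and 27.9 RPM at P3 and at 24.1 and 266 RPM at P14 (1.50 ± 0.59, adjusted p = 0.13), and passed at 3.21 without P14 replicate 1. At P3 the widest gap was that of Reg1, a regenerating lectin, at 287 and 93.2 RPM, with 236 and 281 RPM at P14 and no call (0.65 ± 0.55, adjusted p = 0.55).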

How the data were processed

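The deposited table gives a signal in RPM (reads scaled by the authors to the library total) per gene and library. Per the submitters' processing notes, the tools were Cufflinks 2.2.0, Bowtie 1.0.1, TopHat 1.4.1 and cutadapt 1.11 and the build was mm10, with roles not given in the sources used here. Lines with a blank or non-numeric value (1072 gene lines) and 92 spike-in lines were left out. Low values were not whole multiples of 1 read often enough to recover counts, so no count model was run.

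The main test was limma 3.58.1 in R 4.3.3 (lmFit, then eBayes with a trend) on log2(RPM + 1) over the 6 intestinal libraries, which leaves 3 residual degrees of freedom, with Benjamini-Hochberg adjustment over all genes tested. Adjusted p-values in the text are from this test, except where a left-out library or another setting is named, whose p comes from the same test refitted that way. On simulated data with 10124 genes, 23.9%, 79.1% and 98.5% of genes changed by 1, 2 and 3 on the log2 scale were called, with 3 unchanged genes called. The simulation drew each gene independently, with normal noise and the same spread at each age. It held no shifts shared by genes within a library, so its shares are no error rates for the real libraries. Alternatives covered the pseudocount, the filter, the scaling, the samples fitted, the replicate block and each library left out.

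The libraries compared and the gene lists were chosen with earlier results of these data known. Genes were named by size (the 12 largest called changes per direction without overlap, 4 members per list with the largest difference and up to 3 with the highest level, the 8 highest genes per age and the 10 widest replicate gaps per age), with Prdm1 and Epcam. Of those described, Abcg8, Ang4, Apob, Cd3e, Cdkn1c, Cdx2, Cpt1a, Creb3l1, Dclk1, Dgat2, Folr1, Gcg, Grb10, Itln1, Lct, Lgr5, Lyz1, Mmp7, Muc2, Neurog3, Pou2f3, Reg3a, Reg3g, Sct, Sis and Slc25a20 fall outside this rule and were chosen after their values were seen. Some genes that the rule names are not reported here. Promoter windows are from RefSeq (GRCm38.p6).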

Additional observations from a re-analysis of the deposited data

How the results depend on the processing

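The 207 rises and 244 falls became 84 and 77 with no filter on low values, of which 72 and 69 were calls of the reported analysis, and 125 and 149 with at least 20 RPM in 2 libraries, all of them such calls. A pseudocount of 5 RPM gave 168 rises and 154 falls, of which 168 and 153 were calls of the reported analysis. Leaving out 1 library gave 140 to 210 rises and 135 to 280 falls, with 135 falls without P3 replicate 1, 141 without P3 replicate 2 and 280 without P14 replicate 2. Median-of-ratios scaling gave 240 rises and 191 falls and quantile normalization 248 and 207, which moved the share of rises among calls from 45.9% to 55.7% and 54.5%. Among genes with no call in the reported analysis, the difference changed sign when single libraries were left out. It ranged from -0.36 to 0.06 for Epcam, -0.09 to 0.65 for Lgr5, -0.11 to 0.47 for Olfm4 and -2.30 to 1.59 for St3gal4 (called at both ends), each reversed without P14 replicate 1, and Lgr5 also without P3 replicate 1. It ranged from -0.16 (without P3 replicate 2) to 1.46 for Reg1 and from -0.21 (without P14 replicate 2) to 3.21 for 1810030J14Rik. The cause was not tested. Same-numbered replicates did not deviate together (r across genes 0.0465, -0.0469 and -0.0541 for the 3 pairs of ages), so the numbers are not taken as pairs, and with the replicate block 211 genes rose and 250 fell. Depth limits genes of a few reads, for which 1 read is worth up to 0.448 RPM.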

Other observations

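The genes below were chosen after their values had been seen, and were tested in the same limma fit over all 10124 genes. Rbp2, the enterocyte protein that binds newly absorbed retinol, was at 303 and 429 RPM at E16.5, 127 and 126 RPM at P3 and 25 and 28.3 RPM at P14. The P3 replicates were almost equal, both P14 libraries were far below them, and Rbp2 fell by a difference of -2.21 ± 0.18 (adjusted p = 3.4e-09). The creatine kinase Ckb was at 343 and 294 RPM at P3 and 56.1 and 75 RPM at P14 (-2.27 ± 0.17, adjusted p = 1.5e-09). Acot1, a cytosolic thioesterase that cleaves acyl-CoA, was at 336 and 291 RPM and then 110.4 and 61.8 RPM (-1.91 ± 0.19, adjusted p = 1.6e-07). All of them fell without overlap between ages. Trim71, a target of the let-7 microRNAs that marks early developmental stages, was at 26.7 and 28.7 RPM at E16.5, 9.04 and 7.96 RPM at P3 and 0.712 and 1.46 RPM at P14 (-2.21 ± 0.38, adjusted p = 0.00028), and it passed the filter through P3 alone.

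Guca2a, the precursor of guanylin, which regulates fluid secretion, rose from 224 and 236 RPM at P3 to 593 and 619.9 RPM at P14 (1.4 ± 0.14, adjusted p = 1.6e-07). Sprr2a1, a small proline-rich protein induced by bacteria, was at 273 and 177 RPM at E16.5, 14.6 and 19.3 RPM at P3 and 50.6 and 48.9 RPM at P14 (1.51 ± 0.22, adjusted p = 3e-05). Its near copies Sprr2a2, Sprr2a3 and Sprr2b can share reads with it and are not counted as separate observations. Spib, a transcription factor of M cells and tuft cells, was at 0.448 and 0.337 RPM at P3, about 1 read in each library, and at 5.19 and 7.28 RPM at P14 (2.36 ± 0.57, adjusted p = 0.0071). Its call was lost without P3 replicate 1 (0.057), P3 replicate 2 (0.071) or P14 replicate 2 (0.066) and with no filter (0.083), and it passed the filter through P14 alone.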
